A study of Mus musculus with 6 samples.

Results

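In mouse embryos at the 4-cell stage, 183 genes were picked up in every library after siRNA against Son and were at or near 0 in the controls. They were chosen from the deposited counts by one rule: the 3 control libraries summed to at most 12 units, and each of the 3 siRNA libraries had at least 12 units. The files list 46072 genes, so the members are a small set. The same rule with the groups exchanged found 51 genes. The rule used the siRNA and control counts themselves, so every comparison of the members between the groups is a description and carries no test.

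The study injected siRNA for Son into mouse zygotes and sequenced RNA from 4-cell embryos, with 3 libraries labelled control and 3 labelled siRNA for Son. Smart-Seq2 libraries start from poly(A) tails, cover whole transcripts and keep no record of the strand. The labels give no mouse strain, no number of embryos per library, no account of what the controls received and nothing on separate litters, so the spread between libraries may be technical. SON, the protein encoded by Son, sits in nuclear speckles, binds RNA and helps the spliceosome remove introns with weak splice sites. The embryo at this stage still holds transcripts stored by the oocyte while its own genome is already active. Genes of differentiated tissues are mostly silent at this stage or give few transcripts. At such levels whether a gene is seen at all depends on a few molecules per library.

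Son itself was lower in each siRNA library than in any control. Its level was 249, 322 and 332 CPM (counts scaled to library size by TMM, TMM-scaled CPM) in controls 1 to 3 and 41, 28 and 25 CPM in siRNA libraries 1 to 3. edgeR's quasi-likelihood test put the log2 fold change at -3.26 (SE 0.272) and its Benjamini-Hochberg adjusted p at 0.00991. Permuting the 6 libraries exactly, two-sided, gave p = 0.1, which is the smallest value possible for 3 against 3. In bulk embryos fewer cells expressing a gene and less RNA per cell cannot be told apart. Without siRNA library 1, 2 or 3 the edgeR adjusted p was 0.0648, 0.0709 or 0.136, no longer past 0.05.

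Counts ranged from 107996833 to 118865650 units per control and from 104634855 to 114892490 units per siRNA library, with TMM factors of 0.811 to 1.05 and 1.02 to 1.16, so each siRNA library was larger than each control after TMM. Genes with at least 12 units numbered 16240 to 17210 per control and 17793 to 17821 per siRNA library, so more genes of all kinds passed the minimum after siRNA. Low values peak at multiples of 4 units, so 4 units were taken as 1 read pair; 12 units are then 3 read pairs, or 0.106 to 0.125 CPM in controls and 0.0906 to 0.103 CPM after siRNA. Early embryo and oocyte markers summed to 602 to 1161 CPM in controls and 776 to 1142 CPM after siRNA, led by Dppa3, a maternal factor that protects DNA methylation. The 10 cumulus and granulosa markers summed to 1.02 to 1.69 CPM in controls and 0.514 to 1.46 CPM after siRNA, with Fshr, Inha and Foxl2 at 0 in all libraries. Sperm markers summed to 0.907 to 1.52 and 0.453 to 1.38 CPM, and fibroblast markers to 0.489 to 1.81 and 1.18 to 1.93 CPM. Skin keratinocyte markers summed to 1.19 to 2.22 CPM in controls and 0.801 to 1.42 CPM after siRNA. Blood markers summed to 9.38 to 17.2 CPM in controls and 12.6 to 15.2 CPM after siRNA, with Hba-a1 at 4.14 to 9.80 CPM over all libraries and Ptprc, Hbb-bs and Hbb-bt at 0 in all libraries. Oviduct epithelium markers summed to 93.2 to 188 CPM in controls and 167 to 184 CPM after siRNA, led by Epcam, with Foxj1 and Msln at 0 in all libraries. Within that list Ovgp1, the oviduct glycoprotein gene, had 1.21, 2.95 and 3.91 CPM in controls and 14.2, 7.98 and 5.30 CPM after siRNA, without overlap between the groups. Of all tested genes, 12.1% had every siRNA library above every control. Pax8 of the same list went the other way without overlap, with 0.198, 0.247 and 0.145 CPM in controls and 0, 0.103 and 0 CPM after siRNA. Pax8 is among the genes found by the rule with the groups exchanged. The part of Ovgp1 in the members' values was not tested. No gene of these 7 marker lists is a member.

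The members were faint even where they were detected. Their mean over the siRNA libraries ran from 0.110 to 1.54 CPM with a median of 0.317 CPM, and 4 members reached 1 CPM. Summed over the 3 siRNA libraries a member was carried by 10.3 to 136 read pairs (median 29), if 4 units are 1 pair. All members together had 8336, 7695 and 9894 units in siRNA libraries 1 to 3 and 321, 358 and 298 units in controls 1 to 3. No siRNA library stood apart: the highest CPM was in library 1 for 69 members, in library 2 for 48 and in library 3 for 66. Intervals and floors given here hold for counting error alone, because PCR copies cannot be told from separate molecules without identifiers.

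Detected only after siRNA is strictly true of fewer genes than the rule admits. In all 3 controls 58 members (31.7%) were listed at 0. One control had a count above 0 for 89 members, a pair of controls for 31, and all 3 controls for 5. Control 1 had a count above 0 for 55 members, control 2 for 62 and control 3 for 49. A count of 0 in a control still allows up to 3 read pairs.

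**Figure D1:**
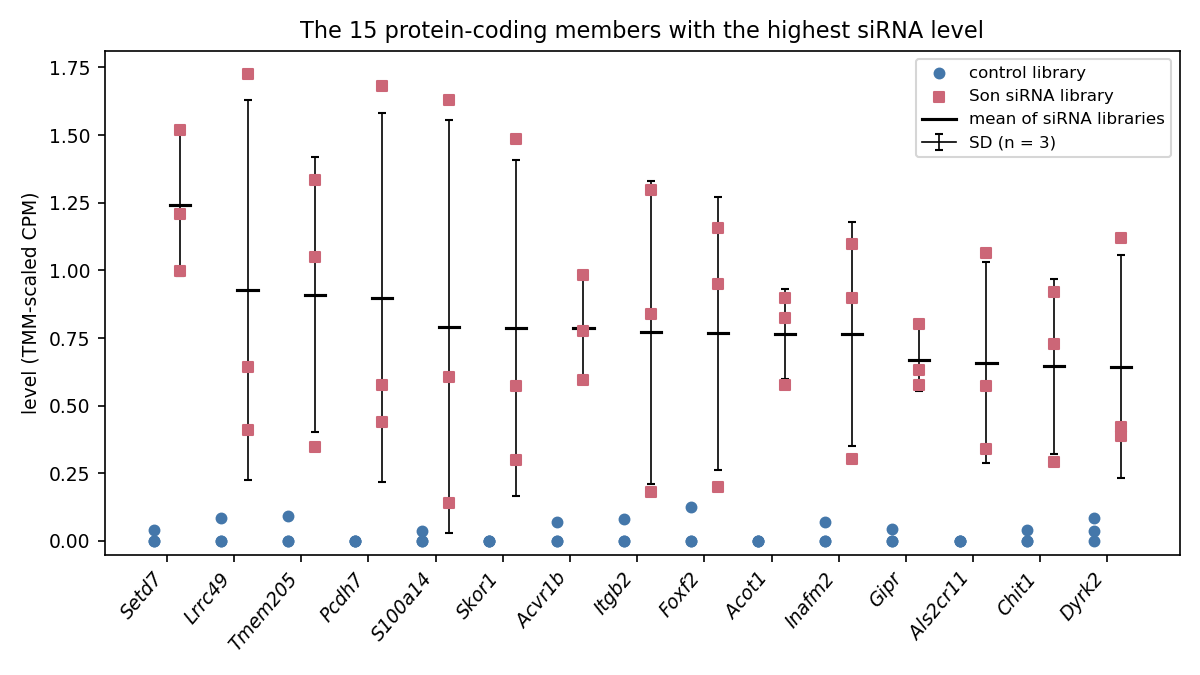
Level of the 15 protein-coding members with the highest siRNA mean, in TMM-scaled CPM on a linear axis. Each point is 1 library, horizontal lines are siRNA means and error bars their SD (n = 3). Control points lie at or just above 0 because the rule chose the genes that way, and the siRNA points of a gene are often far apart (Lrrc49 from 0.410 to 1.73 CPM).

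Among members that act on chromatin or transcription, Setd7 had the highest level. Setd7 encodes a lysine methyltransferase that adds a single methyl group to lysine 4 of histone H3 and also modifies other proteins. Setd7 (ENSMUSG00000037111, chromosome 3 from 51515319 to 51560879 on GRCm38) had 0, 0 and 4 units in the controls and 184, 117 and 160 units after siRNA. All 3 siRNA libraries were high, and the highest was 1.57 times the lowest. The siRNA mean was 1.24 ± 0.261 CPM (SD, n = 3), from 115 read pairs against 1 in the controls. The ratio after scaling was 95.0 with a 95% counting interval of 16.7 to 3783. In the deposited counts Setd7 was also the member with the highest minimum, 117 units.

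Skor1, a corepressor of the SKI family, was at 0 in all controls and had 180, 35 and 76 units after siRNA. Against a floor of 3 read pairs over the control group it was 20.02-fold higher. Folds against this floor leave out the counting error of the siRNA libraries, so they are not lower limits. Foxf2, a forkhead factor of mesenchymal tissue, had 0, 0 and 12 units in controls and 24, 111 and 153 units after siRNA, so control 3 was 12 units below the lowest siRNA library. The patterns for homeobox, forkhead and other developmental factors matched 321 genes, of which 114 had at least 12 units in every siRNA library. Of those, 4 (3.51%) were members, against 1.20% over all detected genes. These were Foxf2, the limb and body axis gene Hoxd1, the homeobox gene Nkx2-4 and Sox2ot, a long noncoding gene that spans the Sox2 locus and was matched by its symbol only. Hoxd1 had 0, 0 and 4 units in controls and 16, 61 and 85 units after siRNA, and siRNA library 1 was the low one. Nkx2-4 had 4, 7 and 0 units against 85, 54 and 16 units, and there siRNA library 3 was the low one. Sox2ot had 7, 4 and 0 units against 115, 17 and 75 units.

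The symbol pattern for zinc finger genes matched 453 genes, of which 367 had at least 12 units in every siRNA library and 3 (0.817%) were members, Zkscan2, Zbtb32 and Zfp389, against 1.20% over all detected genes. Zkscan2 was at 0 in the controls and had 47, 25 and 112 units after siRNA. Zbtb32, a repressor known from lymphocytes, had 7, 0 and 0 units against 46, 56 and 22 units. Zfp389 is annotated as a transcribed processed pseudogene and had 13, 65 and 74 units after siRNA with 0 in all controls.

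A few further transcription factors were picked out after their values were seen. Prdm13, a PR domain zinc finger factor that acts in neuron specification, was at 0 in all controls and had 73, 62 and 70 units after siRNA. It was among the most even members, at 0.554 ± 0.0424 CPM (SD, n = 3), and 14.1-fold higher against the floor. Junb, a subunit of the AP-1 transcription factor that responds quickly to growth signals, had 6, 0 and 4 units in controls and 69, 56 and 38 units after siRNA. Otx1, a homeobox factor of the forebrain, was at 0 in all controls and had 20, 33 and 113 units after siRNA. Its siRNA libraries differed by 5.65 times.

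Replication-dependent histones had 3 members among 25 of 71 genes that reached 12 units in every siRNA library. Hist3h2ba, a histone H2B gene, had 0 in all controls and 31, 39 and 19 units after siRNA. Hist1h3c, a histone H3 gene, had 6, 4 and 0 units against 15, 14 and 19 units. Hist1h2af, a histone H2A gene, had 3, 2 and 2 units against 13, 13 and 20 units. The last pair sit at the edge of the rule, and reads of near-identical copies could be counted for either gene: 79.3% of the 100-base stretches of Hist1h2af and 28.4% of those of Hist1h3c also occur in other genes, and 4.85% of those of Hist3h2ba. Histone transcripts mostly lack a poly(A) tail, so oligo(dT) priming covers them in part only.

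Some members encode receptors or signalling proteins. Acvr1b, a type I receptor for activin and Nodal, had 0, 8 and 0 units in controls and 119, 91 and 79 units after siRNA (0.785 ± 0.193 CPM, SD, n = 3). Its ratio was 29.7 with a counting interval of 7.94 to 250. Gipr, the receptor for the gut hormone GIP, had 0, 5 and 0 units in controls and 70, 74 and 106 units after siRNA. Both had all siRNA libraries close together and no exon shared with another gene. Dyrk2, a protein kinase of the cell cycle and cytoskeleton, had 8, 4 and 0 units in controls and 47, 131 and 56 units after siRNA. Dyrk2 was thus highest in siRNA library 2.

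The symbol pattern for G protein coupled receptors, which does not take in Gipr, matched 55 genes detected in every siRNA library and 3 members. The share was 5.45%, against 1.20% over all detected genes. Adgrg1, an adhesion receptor, had 0, 8 and 0 units in controls and 104, 34 and 16 units after siRNA. Htr7, a serotonin receptor, was at 0 in all controls and had 44, 26 and 12 units after siRNA. In both the lowest siRNA library was library 3, with 12 to 16 units.

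Of the families counted by symbol pattern, chemosensory receptors had the highest share of members among their detected genes, 4 of 32 (12.5%), from 1814 genes in the files. They were Vmn1r53, Olfr328, Olfr1104 and the pseudogene Vmn1r-ps114. Olfr1104 was at 0 in all controls and had 24, 19 and 26 units after siRNA. Olfr328 had 0, 0 and 12 units in controls against 48, 27 and 37 units. Vmn1r53 had 1, 0 and 8 units against 55, 15 and 84 units. The 4 genes lie on 4 different chromosomes, and each rests on few reads. Among the symbol patterns, replication-dependent histones came next with 12%, and over all detected genes the share was 1.20%. The 3 histone members had means below 40 siRNA units, where 9.88% to 19.6% of all detected genes were members. The means of the 4 chemosensory members lay below 80 siRNA units, where 4.52% to 19.6% of all detected genes were members, depending on level.

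Members also included some channel, transporter and adhesion genes. Pcdh7, a protocadherin, was at 0 in all controls and had 70, 197 and 58 units after siRNA (0.900 ± 0.682 CPM, SD, n = 3), 22.4-fold higher against the floor. Of its exonic bases 21.1% overlap another gene, and the reads carry no strand. Itgb2, the beta chain of leukocyte integrins, had 0, 0 and 8 units in controls and 157, 98 and 24 units after siRNA. Of the leukocyte genes in the blood marker list, Ptprc was at 0 in all libraries, Coro1a had 1.81 to 2.88 CPM in controls and 1.09 to 3.65 CPM after siRNA, Cd52 0.475 to 2.06 and 0.378 to 0.777 CPM, and Lyz2 0 to 1.12 and 0 to 1.37 CPM. Their part in the Itgb2 values was not tested. Among ion channels, 3 of 92 detected genes (3.26%) were members, against 1.20% over all detected genes. Scn10a, a sodium channel of sensory neurons, had 0, 0 and 9 units against 15, 74 and 83 units. Grin3b, a glutamate receptor subunit, had 0, 6 and 0 units against 36, 29 and 41 units, with 32.1% of its exonic bases shared with Tmem259.

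The solute carrier pattern matched 237 detected genes and 3 members (1.27%), near the 1.20% over all detected genes. Of these members Slc2a4rg-ps is a pseudogene of a regulator and no carrier. Slc22a3, an organic cation transporter, had 0, 0 and 4 units in controls and 26, 18 and 31 units after siRNA. Slc26a9, a chloride transporter, had 25, 12 and 14 units after siRNA and 0 in the controls. The single member among 19 detected collagens and laminins was Lama1, a laminin alpha chain of basement membranes, with 8, 0 and 0 units against 76, 16 and 17 units. Most of the Lama1 signal came from siRNA library 1.

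Other protein-coding members with high levels had varied roles. Acot1, an enzyme that splits acyl-CoA into fatty acid and CoA, was at 0 in all controls and had 70, 105 and 109 units after siRNA (0.766 ± 0.167 CPM, SD, n = 3). It was 19.5-fold higher against the floor, and 12.4% of its 100-base stretches also occur in its relatives Acot2 and Acot3 and another gene. Chit1, a chitin-cleaving enzyme of macrophages, had 0, 0 and 4 units in controls and 88, 34 and 122 units after siRNA.

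Lrrc49, a leucine-rich repeat protein of the complex that adds glutamate chains to tubulin, had 8, 0 and 0 units in controls and 209, 48 and 85 units after siRNA. Tmem205 had 9, 0 and 0 units against 42, 156 and 139 units. S100a14, a member of the S100 calcium-binding family, had 0, 4 and 0 units against 17, 191 and 80 units. In these 3 genes a single siRNA library was far below or above the others. Inafm2 had 0, 8 and 0 units against 133, 105 and 40 units. Als2cr11 was at 0 in all controls and had 41, 67 and 141 units after siRNA.

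Genes of the testis and sperm pattern gave 2 members of 175 detected (1.14%), near the 1.20% over all detected genes. These were Tex21 and Spata13, both at 0 in all controls. Tex21 had 54, 32 and 121 units after siRNA. Spata13 had 46, 55 and 28 units. Of the other families counted, cytokines and chemokines (51 detected), antigen receptor segments (5), cytochrome P450 genes (18), keratins (12), ribosomal protein pseudogenes (94) and Wnt and TGF-beta ligands (23) had 0 members. At the share of all detected genes, families of this size would hold few members or none. No test was made of the family shares, which also depend on level.

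Long noncoding genes made up 46 of the 183 members and included the one with the highest mean. Gm16196 had 0, 0 and 4 units in controls and 34, 490 and 21 units after siRNA, so its mean of 1.54 ± 2.29 CPM (SD, n = 3) rested on siRNA library 2. Gm2990 was at 0 in all controls and had 64, 68 and 275 units, 28-fold higher against the floor. 2810468N07Rik had 0, 0 and 9 units in controls and 38, 50 and 259 units after siRNA, with 15.5% of its exonic bases shared with Sox8. RP24-68G17.4 had 4, 0 and 0 units against 55, 114 and 128 units, with 14.6% of its bases shared with Lrrc40. Gm648, annotated as protein-coding, was at 0 in all controls and had 49, 43 and 336 units. In Gm2990, 2810468N07Rik and Gm648 the value of siRNA library 3 was several times that of the other libraries.

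The 15 pseudogene members were led by Gm9637 and Gm14895. Gm9637 had 2, 0 and 0 units in controls and 123, 71 and 87 units after siRNA (0.760 ± 0.223 CPM, SD, n = 3). Gm14895, a processed pseudogene inside an intron of Klhl4, had 1, 10 and 0 units against 88, 106 and 72 units. 1700086L19Rik, a transcribed unitary pseudogene, had 0, 0 and 8 units against 83, 32 and 51 units. Among the other clone-named genes, F730043M19Rik had 0, 8 and 0 units against 99, 28 and 73 units, and 2610035F20Rik had 124, 17 and 27 units with 0 in the controls.

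Small RNA genes gave 4 members, 2 microRNA genes and 2 snoRNA genes, which are the shortest members by far. Mir7119 (chromosome 4 from 126559860 to 126559918, plus strand, GRCm38) lies in an intron of Clspn, a checkpoint gene of DNA replication, on the same strand. Mir7069 (chromosome 8 from 84867947 to 84868008, plus strand) lies in an intron of Farsa, a tRNA synthetase subunit gene, also on the same strand. Their RefSeq hairpins and mature arms (GRCm38.p6) are shown because they are the whole stretch on which these counts rest; capitals mark the seed, bases 2 to 8 of a mature arm, and the 4 arms have 4 different seeds.
Mir7119 hairpin: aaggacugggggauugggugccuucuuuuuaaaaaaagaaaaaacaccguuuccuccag
mmu-miR-7119-5p: cUGGGGGAuugggugccuucu
mmu-miR-7119-3p: aAAAAACAccguuuccuccag
Mir7069 hairpin: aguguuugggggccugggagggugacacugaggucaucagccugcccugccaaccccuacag
mmu-miR-7069-5p: uUGGGGGCcugggagggugacac
mmu-miR-7069-3p: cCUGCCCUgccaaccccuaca

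Mir7119 had 0, 6 and 4 units in controls and 26, 26 and 44 units after siRNA. Mir7069 had 2, 0 and 3 units in controls and 32, 21 and 21 units after siRNA. A mature microRNA has no poly(A) tail and is too short for this library type, so these counts stand for reads over the hairpin sequence and not for the microRNA. Which transcript the reads came from was not tested. The host Clspn had a control mean of 114 ± 30.03 CPM and an siRNA mean of 145 ± 20.5 CPM, and Farsa had 43.5 ± 12.1 and 26.0 ± 1.44 CPM (SD, n = 3). Per kilobase of exon, Mir7119 and Mir7069 had 4.35 and 3.24 CPM and were the highest members, because a hairpin is so short. The highest protein-coding member per kilobase was Gm648 with 1.06 CPM. The snoRNA gene Gm24451 shares 75.2% of its bases with exons of its host Nop56 and had 4, 3 and 5 units in controls against 39, 38 and 54 units after siRNA. Snord104 had 6, 1 and 1 units against 13, 17 and 18 units.

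By gene type, 118 members (64.5%) were protein-coding, against 82.6% of the 15215 matched genes with at least 12 units in every siRNA library. Long noncoding genes took 25.1% of the members and 8.48% of those genes, with antisense genes at 9.29% and 2.28%. The 51 control-only genes had nearly the same make-up as the members, 64.7% protein-coding and 27.5% long noncoding. Pseudogenes were at 8.20%, 7.84% and 7.99% in members, control-only genes and genes detected in every siRNA library. Members had a median of 4 exons and 2797 exonic bases, control-only genes 4 exons and 2574 bases, and genes detected in every siRNA library 7 exons and 3675 bases. Both 1-group sets therefore held more noncoding and shorter genes than the detected genes at large. Levels differed too: of 15307 genes detected in every siRNA library, 11211 had means of 160 units or more, and 1 of these was a member. No test was made of the shares by type, and the part of level in them was not tested.

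Structure differed somewhat more between the members and the control-only genes. Single-exon genes made up 41 of the 183 members (22.4%), 7 of the 51 control-only genes (13.7%) and 11.6% of genes detected in every siRNA library. Within protein-coding genes alone the shares were 9.32% (11 members), 6.06% (2 genes) and 2.46%. The GC content of the longest transcript had a median of 50.4% in members, 49.0% in control-only genes and 48.6% in genes detected in every siRNA library.

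**Figure D2:**
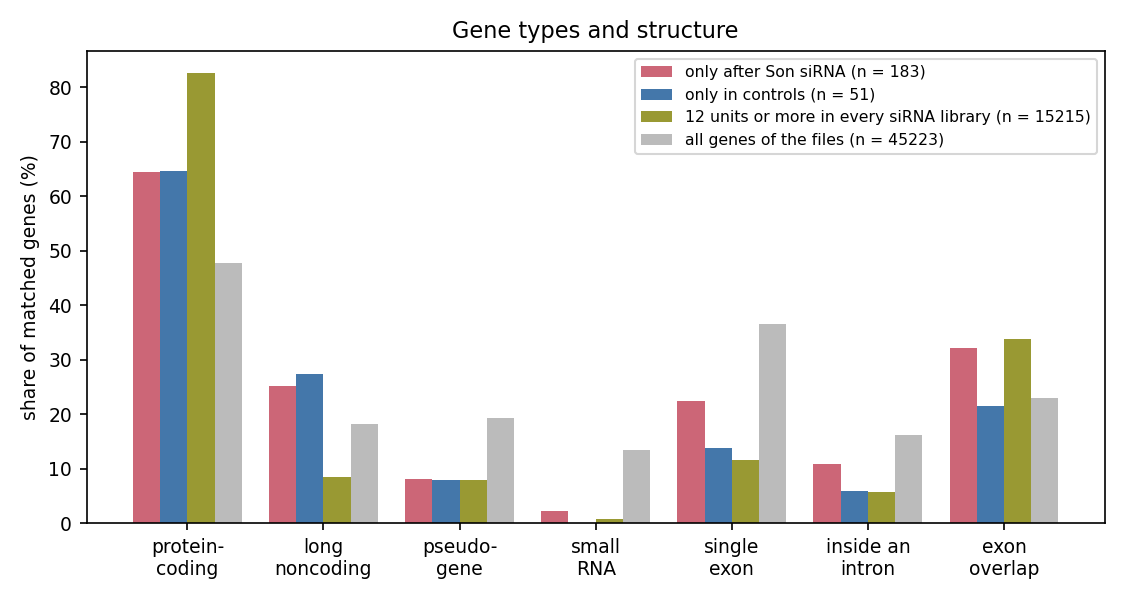
Share of genes (percent) by gene type and structure for members, control-only genes, genes at 12 units or more in every siRNA library and all matched genes of the files. Inside an intron means that the gene lies within another gene and shares no exonic base; members and control-only genes have similar shares of protein-coding and long noncoding genes.

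Position relative to other genes matters here because the reads carry no strand. Of the members, 59 (32.2%) shared exonic bases with another gene. The share was 21.6% (11 of 51) for control-only genes and 33.7% for genes detected in every siRNA library. For 5 members the overlap covered 50% or more of their bases. These were Gm38287, which lies wholly within exons of Nrarp, Prickle4, Gm24451, Gm26533 and Gm15063, named after their values were seen. Their counts cannot be assigned to one gene. Shared sequence sets the same limit on others. Of 180 members long enough for a 100-base stretch, 26 had 10% or more of their stretches in other genes too, and 8 had 50% or more. Among those 8 were Gm13276 (87.3%), Gm3972 (86.5%) and Gm13170 (69.1%), which are not among the 5 named above. Apart from the 59 members with exonic overlap, 20 members (10.9%) lay inside another gene without touching its exons. The share was 5.88% for control-only genes and 5.78% for genes detected in every siRNA library. Of these 20, 19 had a single host; 12 lay on the host's strand, 6 on the other strand, and 1 host is not listed in the files.

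Where such a single host reached 10 CPM in both groups, which 8 did, the host's log2 fold change ran from -0.74 to 0.35. Examples of members on the host's strand are Gm37553 in Msl2, Gm37062 in Rev1 and Gm16546 in Pdss2. Gm37553 had 14, 15 and 15 units after siRNA and 0 in the controls, while Msl2 had a control mean of 45.5 ± 16.0 CPM and an siRNA mean of 49.9 ± 6.99 CPM (SD, n = 3). Whether reads from host introns add to these members was not tested.

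Members were spread over the genome. Chromosome 2 held 18 members of 1223 genes detected in every siRNA library, chromosome 7 held 15 of 1105 and chromosome 10 held 13 of 667. Over all detected genes the share of members was 1.20%. The Y chromosome and the mitochondrial genome had only 13 and 37 detected genes, and none was a member. Within 100 kb of each other there were 4 pairs of members, Gm38287 with Tor4a, Inafm2 with Gm14091, Gm10399 with Vsig10, and Gm38150 with Gnat1. Tor4a had 0, 0 and 8 units in controls and 126, 59 and 13 units after siRNA, and its neighbour Gm38287 had 37, 29 and 62 units with 0 in the controls. The order of the siRNA libraries thus differed within that pair.

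The evenness of the siRNA libraries varied widely between members. The highest siRNA library was 1.07 to 23.3 times the lowest in units, with a median of 2.55. It was under 1.5 times the lowest for 25 members and over 5 times for 33. The most even member was Ift27, a GTPase of intraflagellar transport in cilia, with 58, 59 and 62 units after siRNA and 0, 8 and 0 units in the controls. Khdrbs2, an RNA-binding protein of the STAR family that acts in neuronal splicing, had 52, 52 and 45 units and 0 in all controls. The least even was Gm16196.

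Many members sat at the edge of the rule. The lowest siRNA library had exactly 12 units for 24 members and under 20 units for 94, and the controls summed to exactly 12 units for 17. Just inside were Asphd1 (12, 0 and 0 units in controls, 31, 14 and 12 after siRNA), RP23-335C9.1 (0, 0 and 12 against 135, 12 and 19) and Rfx8 (0, 12 and 0 against 12, 49 and 55). Just outside, with control sums of 13, were C130060K24Rik (93, 105 and 99 units after siRNA), Aif1 (54, 135 and 164) and Gm4981 (46, 53 and 60). Outside on the other side, with 11 units in the lowest siRNA library and 0 in all controls, were Apc-ps1, Ccdc183 and Gm10822. Control sums of 13 to 24 units kept 154 genes out, and a lowest siRNA library of 8 to 11 units kept 105 out.

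The share of members among detected genes fell with level. The rule builds this in, because its fixed limit of 12 units in the controls asks for a larger difference at higher siRNA means. Of the 97 genes with at least 12 units in every siRNA library and a siRNA mean under 20 units, 19 were members (19.6%). The share was 9.88% (75 of 759) at means of 20 to 40 units, 4.52% (67 of 1483) at 40 to 80 units and 1.20% (21 of 1757) at 80 to 160 units. Above that, 1 of 11211 genes was a member. Control-only genes followed the same order from 20 units on, with 3.68% (20 of 543), 1.52% (17 of 1119), 0.503% (8 of 1590) and 0.0474% (5 of 10538), and had 1 of 62 genes below 20 units. Members were the more frequent set in each bin up to 160 units, and control-only genes above it.

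**Figure D3:**
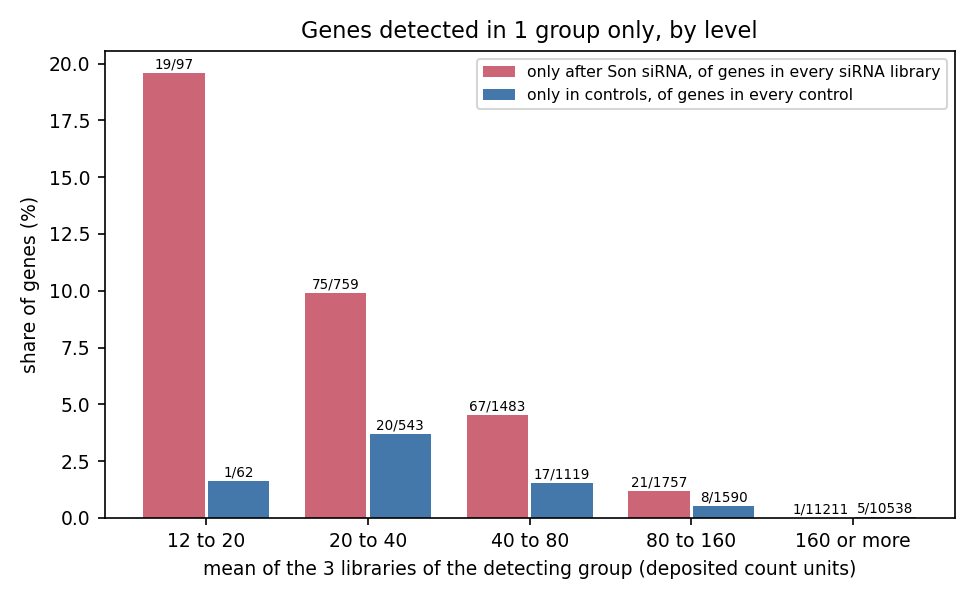
Share of genes (percent) seen in 1 group only, by the mean of the detecting group in deposited count units, with the number of genes over each bar. Members (of genes at 12 units or more in every siRNA library) fall from 19.6% below 20 units to 1.20% at 80 to 160 units, and control-only genes (of genes at 12 units or more in every control) lie lower in each of the first 4 bins. The rule's fixed limit for the low group builds in a fall with level.

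The number of members depended strongly on the rule's settings, while members outnumbered control-only genes under each setting tried. With 0 units required in the low group there were 58 members and 18 control-only genes, and with up to 24 units 337 and 80. With at least 20 or 40 units in each library of the high group the numbers were 89 and 32, or 27 and 8. Scaling the counts by totals gave 163 and 47, and scaling by TMM-adjusted library size gave 132 and 56, so the ratio of the sets went from 3.59 to 2.36. Of the 183 members, 132 remained under TMM scaling. More generally, 2051 genes had at least 12 units in every siRNA library and not in every control, and 596 the reverse.

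**Figure D4:**
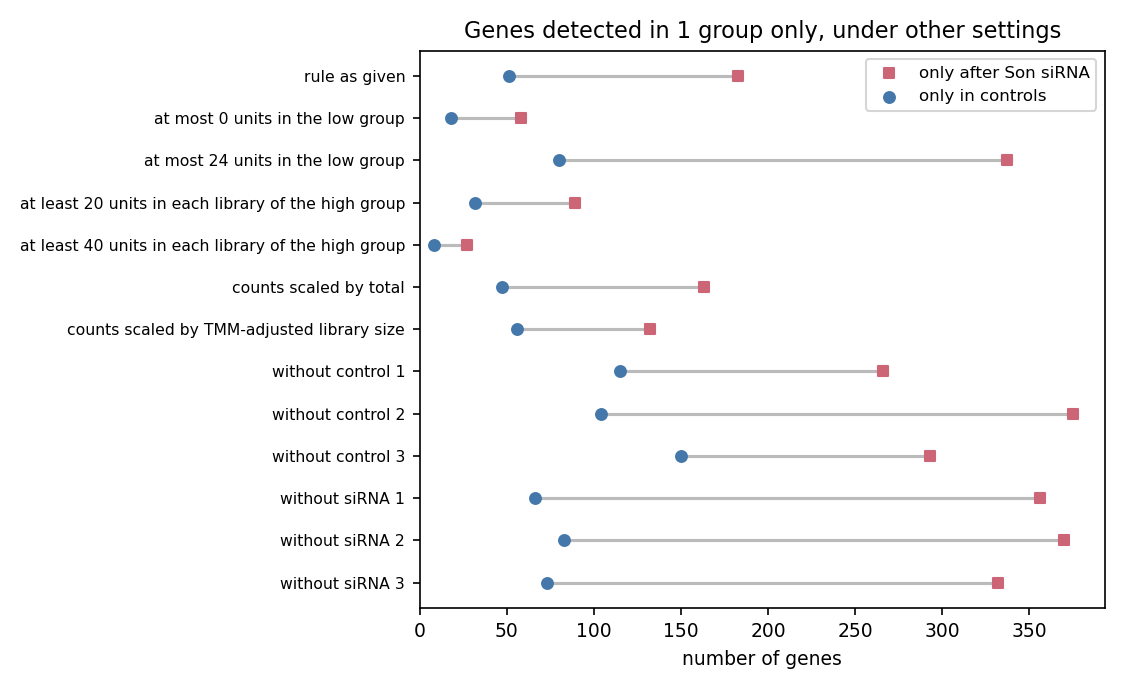
Number of genes detected only after Son siRNA (squares) and only in controls (circles) under the rule as given and 12 other settings. The squares lie to the right in each row, from 27 against 8 genes to 375 against 104 genes.

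The counts were higher when a library was left out. Where the low group lost a library, its limit was also lowered from 12 to 8 units over the 2 libraries left, so that 2 choices changed at once. Without control 1, 2 or 3 there were then 266, 375 and 293 genes detected only after siRNA, which held 157, 155 and 156 of the 183 members, and 115, 104 and 150 control-only genes. Without siRNA library 1, 2 or 3 there were 356, 370 and 332 members and 66, 83 and 73 control-only genes. With the limit kept at 12 units, an alternative chosen after seeing the data, leaving out control 1, 2 or 3 gave 338, 480 and 367 genes, each with all 183 members. The count was highest without control 2 under both limits. Of the controls this library had the most genes with at least 12 units, 17210 against 16375 and 16240, and the highest TMM factor, 1.05. It also had the lowest mitochondrial share of counts, 9.79% against 13.2% to 17.5% in the other libraries. The part of these traits of control 2 in the counts was not tested.

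In the fit over all genes none of the members passed. edgeR's quasi-likelihood test, at a Benjamini-Hochberg adjusted p under 0.05, called 0 of the 183 members higher, where 0.0899% of all 17788 tested genes were called higher; the smallest adjusted p of a member was 0.0554, for Gm2990. All 183 members passed edgeR's filter on low counts, through the siRNA libraries that the rule requires, so they had to differ in the fit. At an unadjusted p under 0.05 there were 112 members, against 5.88% of all tested genes, and DESeq2's Wald test called 76 members, against 2.84% of the 19410 genes it tested. After TMM scaling 179 members had every siRNA library above every control, against 12.1% of tested genes. These counts follow from the choice of the members and nothing is read from them.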

How the data were processed

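RNA of mouse 4-cell embryos was measured in 3 control and 3 Son siRNA libraries, grouped by sample title. Whole embryos went into lysis solution for Smart-Seq2, per the labels' protocols. The submitters' processing notes list HISAT2 2.0.5, StringTie 1.3.3b and GRCm38. How reads were filtered and counted, their length and the annotation release were not given in the sources used here. Estimated counts (units) were deposited as whole numbers per gene, not normalized. A value of 4 units occurred in 434 to 544 genes per library, against 264 to 327 genes with 3 units and 202 to 268 with 5, so 1 read pair was taken as 4 units. This is an assumption on which read pairs, floors and intervals rest: 1 unit was the most frequent value (531 to 629 genes), 2 units occurred in 334 to 407 genes, and 26.4% to 32.4% of values from 1 to 40 units were multiples of 4.

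Members were found on the deposited counts without scaling. All 183 matched GENCODE vM21 (GRCm38) by Ensembl identifier, as did 45223 of 46072 genes; this gave coordinates, types, exons and GC content. Exonic overlap and shared 100-base stretches (both strands) were computed from it; 3 members were too short for a stretch. CPM are TMM-scaled. The test over all genes was edgeR 4.0.16 (R 4.3.3) with filterByExpr, TMM, glmQLFit and glmQLFTest, with limma 3.58.1 loaded by it, and DESeq2 1.42.0 as an alternative. edgeR was tried on simulated counts in which only genes above the level of every member were changed, so this check does not cover the members. The rule was checked on a few made-up rows. Ratios use exact 95% conditional intervals on read pairs.

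The members and lists were chosen with earlier results of these data known. Named genes were Son; the 15 protein-coding members with the highest mean CPM over siRNA libraries without predicted or clone names; the 4 highest long noncoding and 4 highest pseudogene members; the 6 highest members at 0 in all controls; up to 3 members per gene family, matched by symbol pattern; and the genes nearest the threshold. Other members named for evenness, overlap, hosts or neighbours, and Prdm13, Junb and Otx1, were chosen after their values were seen. Alternatives were other limits in the rule, scaled counts, other normalizations and filters, DESeq2, a replicate block, counts divided by 4 and leaving out each library. The values of some genes are not reported here.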

Additional observations from a re-analysis of the deposited data

How the results depend on the processing

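Depth is a limit: at 3 read pairs per library a gene can pass or miss the rule by 1 pair. The count of members was 58 with 0 units in the low group, 337 with up to 24 units, 89 and 27 with at least 20 and 40 units, and 266 to 375 when a library was left out, with the limit lowered to 8 units where the low group lost one. Control-only genes numbered 18, 80, 32 and 8 under the same limits and 66 to 150 without a library. With that limit kept at 12, chosen after seeing the data, members numbered 338, 480 and 367 without control 1, 2 and 3, and control-only genes 87, 110 and 92 without siRNA library 1, 2 and 3. Son's log2 fold change lay between -3.50 and -3.12 without a library. Libraries with the same replicate number were not more alike. Correlations of their deviations were -0.27, -0.33 and 0.02, against -0.23 to 0.41 for libraries with different numbers. With 3 libraries per group this check cannot exclude a pairing. With the replicate number as a block, Son had -3.29 (edgeR adjusted p = 0.0617) and 0 genes were called higher (887 at an unadjusted p under 0.05; DESeq2 without the block called 552). Total counts in place of TMM moved the median log2 fold change of all genes from 0.02 to 0.31. edgeR called 16 genes higher in all, 7 with total counts, 9 without a filter, 43 with at least 50 units in 3 libraries, 51 with counts divided by 4, and 0 to 84 without a library (0 without siRNA library 1, 2 or 3, and 84 without control 2). For members the calls were 0, but 5 with at least 50 units in 3 libraries (13 members tested), 5 with counts divided by 4 (24 tested) and 76 with DESeq2. Over all genes these settings called 43 of 14124, 51 of 14666 and 552 of 19410 tested genes higher. The 13 and 24 members passed the filters through the siRNA libraries that the rule requires to be high, so nothing is read from their calls. The cause of the changes in calls was not tested. The shares of gene types, single-exon and overlapping genes among members were set beside a 95% binomial interval of the main share, which takes genes as independent. They lay outside it with at least 40 units (protein-coding 77.8%, long noncoding 14.8%, exon overlap 44.4%) and with 0 units in the low group (exon overlap 22.4%). The sets under other limits and scalings are parts or extensions of the same members. Shares near the main ones are thus partly built in, and no stability is read from them.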
